A study of Homo sapiens with 8 samples.

Results

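The levels of 9 genes were followed library by library in human esophageal epithelial cells that overexpress a microRNA, miR-155-5p: KLHL29, H6PD, RAB12, OSBPL10, RBM4B, PPP1R3F, TIAF1, PLD5 and WIPF1. They were 9 of the 58735 genes listed in the deposited counts and of the 15135 with enough reads to be tested, and all 9 passed that filter. They had been chosen for a large or even shift between the groups, so their levels, fold changes and within-group spread are given as a description, with no test. EPC2-hTERT is a telomerase-immortalised line of normal human esophageal keratinocytes. The 4 miR-155OE libraries came from a stable line of these cells made with a lentiviral miR-155-5p construct, and the 4 CTRL libraries from EPC2-hTERT cells labelled control. The labels state neither what construct the control cells carry nor whether the lines are clones or pools. All 8 cultures were 3D air-liquid interface cultures, kept 2 days submerged on inserts with 0.4 µm pores and a further 5 days at 1.8 mM calcium before they were raised to air.

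MicroRNAs of the miR-155 family are short RNAs that guide silencing complexes to messenger RNAs, mostly through pairing of their seed to the 3′ UTR, and the paired transcripts usually fall modestly. The 9 genes do not form a pathway. KLHL29 belongs to the kelch-like family, many of whose members hand substrates to CUL3 ubiquitin ligases. H6PD makes NADPH inside the endoplasmic reticulum, RAB12 is a small GTPase of endosomal traffic, and OSBPL10 is a lipid transfer protein of the oxysterol-binding family. RBM4B is an RNA-binding protein and close relative of the splicing regulator RBM4, PPP1R3F targets protein phosphatase 1 to glycogen, and TIAF1 is a small gene nested in MYO18A, a myosin gene. PLD5 is a phospholipase D family member, and WIPF1 binds the actin regulators WASP and N-WASP.

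The seed of the overexpressed microRNA, and the only matches to it in the annotated 3′ UTRs of the 9 genes, are shown because they are the letters by which these genes could pair with it. In the mature microRNA (RefSeq, GRCh38.p14, chr21:25573983-25574006, plus strand) the capitals mark the seed, bases 2 to 8. In the sites (GENCODE release 29 transcripts on GRCh38, minus strand for both genes) the capitals mark the matching bases: the complement of bases 2 to 8 in PLD5 (chr1:242088434-242088457), and the complement of bases 2 to 7 followed by an A in OSBPL10 (chr3:31662778-31662801).

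miR-155-5p: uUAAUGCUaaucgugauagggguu

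PLD5 site: tataaatgctaAGCATTAtaatat

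OSBPL10 site: gtggaaggctgtGCATTAAacagc

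The PLD5 match began at base 1408 of a 3′ UTR of 6868 bases, and the OSBPL10 match began directly after base 1229 of 6107. PLD5 was lower in miR-155OE and OSBPL10 was higher. The longest annotated 3′ UTRs of KLHL29, H6PD, RAB12, RBM4B, PPP1R3F, TIAF1 and WIPF1, from 331 bases (TIAF1) to 6468 bases (H6PD), held no match of either form. In all, 2 of the 9 genes (22.2%) had a match, beside 2333 of the 12525 other tested genes with an annotated 3′ UTR (18.6%). The median 3′ UTR was 1942 bases in the 9 genes and 1634 bases in the others, both far shorter than those of PLD5 and OSBPL10. The shares were not matched for length. A match is a description of the letters and does not show that the site is used.

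Library totals ran from 33443635 to 52746852 counts. All 10 squamous epithelial markers had reads in every library, with a summed level of 43063 to 56207 CPM in miR-155OE and 50864 to 61558 CPM in CTRL; CPM is the usual per-library scaling of counts, here with TMM factors. The 5 immune markers summed to 8.68 to 15.1 CPM in miR-155OE and 7.56 to 9.67 CPM in CTRL, the 3 endothelial markers to 1.29 to 2.35 and 1.51 to 2.19 CPM, the 5 fibroblast or muscle markers to 98.1 to 221 and 92.8 to 145 CPM, and the 3 melanocyte markers to 1.17 to 2.28 and 1.52 to 2.37 CPM. The fibroblast or muscle sum came from COL1A1 and PDGFRB, and only 1 of the 5 markers of that set had reads in every library. COL1A2, DCN, DES and TYR had 0 reads in all 8 libraries. The microRNA's host gene MIR155HG and its hairpin gene MIR155 also went without a read, which allows up to 0.0573 to 0.0901 CPM (3 reads) depending on the library; the labels could not be checked with them. The labels do not say that libraries of a group are separate cultures, so the p-values below rest on the scatter of these 8 samples, part of which may be technical. All miR-155OE libraries came from a stable line, so an effect of the microRNA and a difference between the lines cannot be told apart. In bulk libraries, more RNA per cell and more cells of a type cannot be told apart.

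Of these, 4 were higher in miR-155OE. KLHL29 (ENSG00000119771; chromosome 2, 23385217 to 23708611) had 48.3, 48.3, 47.0 and 45.2 CPM in miR-155OE libraries 1 to 4, against 15.5, 15.7, 13.4 and 17.5 CPM in CTRL libraries 1 to 4. The lowest miR-155OE library stood 2.58-fold above the highest CTRL library, and the 4 miR-155OE libraries lay within a factor of 1.07 of each other. The mean was 47.2 ± 1.44 CPM in miR-155OE and 15.5 ± 1.68 CPM in CTRL (SD, n = 4 each), which is 1.60 as a log2 fold change. H6PD (ENSG00000049239; chromosome 1, 9234775 to 9271337) had 13.7, 14.4, 12.3 and 12.6 CPM in miR-155OE libraries 1 to 4, against 4.71, 5.36, 3.80 and 5.08 CPM in CTRL libraries 1 to 4. In both groups library 3 was its lowest and library 2 its highest, and the log2 fold change was 1.49.

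RAB12 and OSBPL10 were shifted less far, from higher levels. RAB12 (ENSG00000206418; chromosome 18, 8609437 to 8639382) had 64.9, 65.2, 62.5 and 63.0 CPM in miR-155OE libraries 1 to 4, against 39.3, 41.9, 40.3 and 42.9 CPM in CTRL libraries 1 to 4. Its log2 fold change was 0.64, and the libraries lay within a factor of 1.04 of each other in miR-155OE and of 1.09 in CTRL. OSBPL10 (ENSG00000144645; chromosome 3, 31657890 to 32077580) had 60.3, 57.7, 53.0 and 55.5 CPM in miR-155OE libraries 1 to 4, against 34.2, 34.5, 38.0 and 34.8 CPM in CTRL libraries 1 to 4. CTRL library 3 stood above the other CTRL libraries, and miR-155OE library 3 was the lowest of its group, so the difference was narrowest at that number. The log2 fold change of OSBPL10 was 0.68.

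The other 5 genes were lower in miR-155OE. RBM4B (ENSG00000173914; chromosome 11, 66664998 to 66677921) had 458, 481, 470 and 507 reads in miR-155OE libraries 1 to 4, against 971, 891, 1519 and 923 reads in CTRL libraries 1 to 4, or 13.2 ± 1.03 CPM in miR-155OE and 26.8 ± 2.48 CPM in CTRL (SD, n = 4 each). On the CPM scale every CTRL library was at least 1.72-fold above every miR-155OE library, and the log2 fold change was −1.03. PPP1R3F (ENSG00000049769; chromosome X, 49269843 to 49301461) had 243, 257, 403 and 287 reads in miR-155OE libraries 1 to 4, against 701, 632, 991 and 808 reads in CTRL libraries 1 to 4, or 8.09 ± 1.31 CPM in miR-155OE and 19.7 ± 1.29 CPM in CTRL (SD, n = 4 each). Library 3 was the highest of the miR-155OE libraries also in CPM, and the log2 fold change was −1.28.

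TIAF1, PLD5 and WIPF1 rested on few reads. TIAF1 (ENSG00000221995; chromosome 17, 29073521 to 29078857) had 45, 65, 43 and 42 reads in miR-155OE libraries 1 to 4, against 172, 109, 258 and 126 reads in CTRL libraries 1 to 4, which came to 1.35 ± 0.337 CPM in miR-155OE and 4.11 ± 1.04 CPM in CTRL (SD, n = 4 each). PLD5 (ENSG00000180287; chromosome 1, 242082986 to 242524696) had 30, 31, 19 and 31 reads in miR-155OE libraries 1 to 4, against 83, 71, 179 and 59 reads in CTRL libraries 1 to 4, or 0.772 ± 0.202 CPM in miR-155OE and 2.36 ± 0.800 CPM in CTRL (SD, n = 4 each). WIPF1 (ENSG00000115935; chromosome 2, 174559572 to 174682916) had 15, 49, 34 and 53 reads in miR-155OE libraries 1 to 4, against 108, 83, 145 and 111 reads in CTRL libraries 1 to 4, or 1.03 ± 0.470 CPM in miR-155OE and 2.81 ± 0.326 CPM in CTRL (SD, n = 4 each). All 3 stayed below CTRL in each miR-155OE library, by log2 fold changes of −1.61 for TIAF1, −1.62 for PLD5 and −1.44 for WIPF1, but by unequal amounts: the highest WIPF1 library of the miR-155OE group was 3.22-fold above its lowest. The groups did not overlap in any of the 9 genes. Because the genes were picked from this contrast, nothing is read from that count, beside which 11.4% of all tested genes had groups that did not overlap (6.17% higher and 5.25% lower in miR-155OE).

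**Figure D1:**
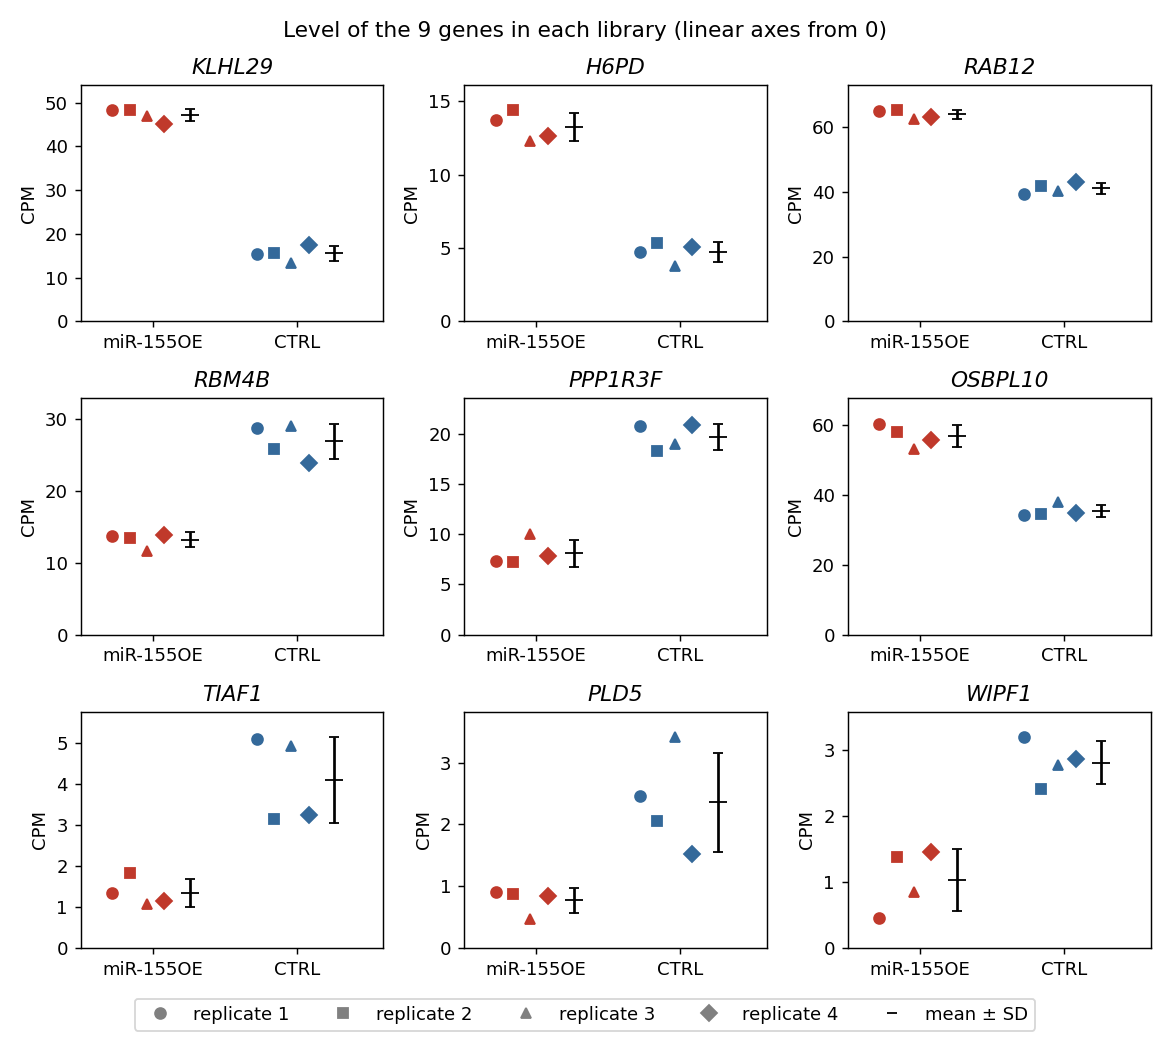
Level of each gene (CPM, linear axis from 0) in the 4 miR-155OE and the 4 CTRL libraries, with the replicate number as the marker and the mean ± SD in black. KLHL29, H6PD, RAB12 and OSBPL10 are higher and RBM4B, PPP1R3F, TIAF1, PLD5 and WIPF1 lower in every miR-155OE library, with the widest relative scatter among miR-155OE libraries in TIAF1, PLD5 and WIPF1.

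How even the shift was differed among the 9 genes. Separation was taken as the gap between the groups divided by the wider of the 2 within-group ranges, in log2 CPM, and genes averaging at least 1 CPM, 12563 in number, were ranked by it. RAB12 ranked 4 (separation 4.22), KLHL29 6 (3.55), RBM4B 8 (2.74), OSBPL10 11 (2.59), H6PD 13 (2.41) and PPP1R3F 27 (1.83). TIAF1 ranked 85 (1.03), close to the point where the gap only equals the wider range, and PLD5 (0.64, rank 241) and WIPF1 (0.44, rank 423) had gaps smaller than the scatter within a group. A separation above 1 was found in 94 of the ranked genes. These ranks describe values that chose the genes and support nothing. PLD5 and WIPF1 were lower in every overexpressing library without being evenly lower, and PPP1R3F, whose gap exceeded its scatter, still varied in miR-155OE from −0.97 to −1.45 relative to its CTRL mean on the log2 scale.

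RAB12 and KLHL29 varied little more between the miR-155OE libraries than counting reads alone would give. The coefficient of variation (CV, the SD as a percentage of the mean) of RAB12 was 2.12% in miR-155OE and 3.97% in CTRL, where counting error alone gives 2.08% and 2.51%. For KLHL29 it was 3.05% in miR-155OE and 10.8% in CTRL, where counting error gives 2.42% and 4.08%. Of the ranked genes, 1.49% had a lower CV than RAB12 and 4.01% a lower CV than KLHL29 in miR-155OE, where the median gene had 10.7%. Like the ranks above, these shares describe genes chosen for a large or even shift and support nothing. PPP1R3F showed the opposite order, with a CV of 16.2% in miR-155OE and 6.54% in CTRL. WIPF1 had the widest relative spread of the 9 in miR-155OE (45.7%, where counting error gives 16.4%), against 11.6% in CTRL (9.60%). In CTRL the widest was PLD5, with 33.9%, where counting error gives 10.5%.

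**Figure D2:**
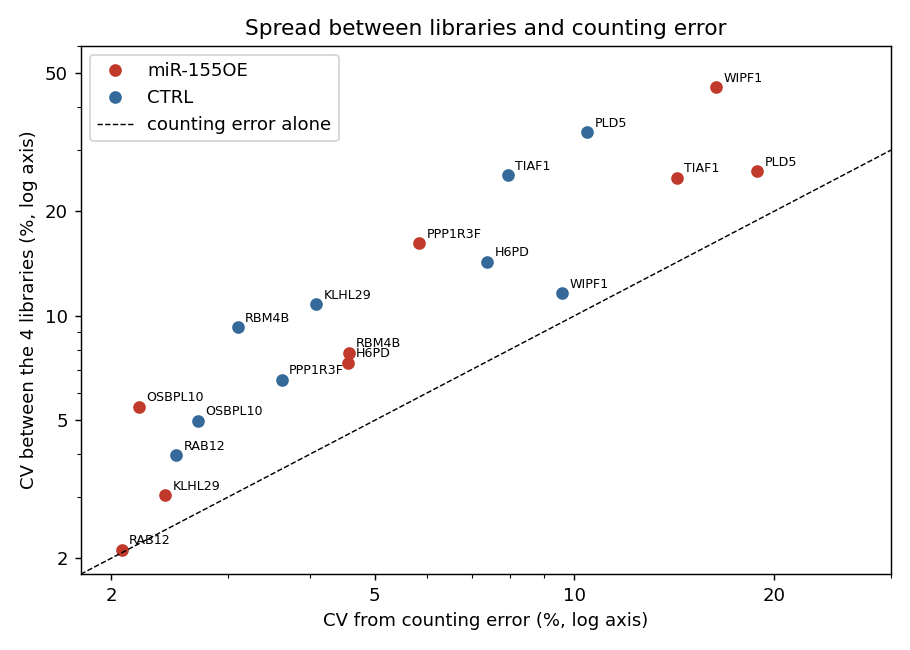
CV between the 4 libraries of a group (vertical, log axis) against the CV that counting error alone would give (horizontal, log axis), with miR-155OE in red and CTRL in blue, 1 point per gene and group. RAB12 and KLHL29 in miR-155OE lie on or near the dashed line of equality (2.12% and 3.05%), and WIPF1 in miR-155OE lies highest (45.7%).

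Taking same-numbered libraries together, each of the 9 genes kept its direction in 4 of 4 pairs, as the choice of genes with non-overlapping groups fixes it. The difference of log2 CPM, miR-155OE minus CTRL, ran from 0.55 to 0.73 in RAB12, from 1.37 to 1.80 in KLHL29, from 1.31 to 1.69 in H6PD and from 0.48 to 0.82 in OSBPL10. Among the lower genes it ran from −1.31 to −0.78 in RBM4B, and its smallest size in PPP1R3F was −0.92, in pair 3. It was widest in PLD5 (−2.82 to −0.83), WIPF1 (−2.79 to −0.80) and TIAF1 (−2.19 to −0.79). Pair 3 held the largest difference of KLHL29, H6PD, RBM4B, TIAF1 and PLD5 and the smallest of PPP1R3F and OSBPL10.

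Per kb of the deposited gene length, the order of the 9 levels differed between the groups. In miR-155OE the order was RAB12 (25.8 ± 0.546 CPM per kb), OSBPL10 (4.73 ± 0.259), KLHL29 (4.26 ± 0.130), RBM4B (3.05 ± 0.239), PPP1R3F (1.94 ± 0.314), H6PD (1.42 ± 0.104), TIAF1 (0.252 ± 0.0631), WIPF1 (0.113 ± 0.0516) and PLD5 (0.0809 ± 0.0211; SD, n = 4 each). In CTRL it was RAB12 (16.6 ± 0.658 CPM per kb), RBM4B (6.20 ± 0.574), PPP1R3F (4.72 ± 0.309), OSBPL10 (2.95 ± 0.147), KLHL29 (1.40 ± 0.152), TIAF1 (0.769 ± 0.196), H6PD (0.508 ± 0.0728), WIPF1 (0.308 ± 0.0358) and PLD5 (0.248 ± 0.0839; SD, n = 4 each). Library values of neighbours in these orders were apart, except those of WIPF1 and PLD5, which overlapped in both groups. KLHL29 and OSBPL10 lay above RBM4B and PPP1R3F in miR-155OE and below them in CTRL.

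The short arm of chromosome 8 (8p) was lower in all 4 miR-155OE libraries, and the question was whether the 9 genes shifted in step with it. None of the 9 lies on chromosome 8. Over 120 genes of 8p with a mean of at least 2 on the log2 CPM scale, the median difference from the CTRL mean was −0.49, −0.21, −0.58 and −0.28 in miR-155OE libraries 1 to 4 and between −0.01 and 0.04 in CTRL. The largest 8p fall was thus 2.75 times the smallest. KLHL29 stood 1.64, 1.64, 1.60 and 1.55 above its CTRL mean in miR-155OE libraries 1 to 4, the largest shift being 1.06 times the smallest, and RAB12 stood 0.66, 0.67, 0.61 and 0.62 above it.

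Ranked by the size of the 8p fall, the miR-155OE libraries ran 3, 1, 4, 2, and 0 of the 9 genes had that order by difference from the CTRL mean. Unrelated values seldom share an exact order over 4 libraries, so such a count cannot decide whether the genes shifted in step with 8p. Library 3, with the deepest 8p fall, held the smallest shift of 4 genes (H6PD, RAB12, PPP1R3F and OSBPL10) and the largest of 3 (RBM4B, TIAF1 and PLD5). Library 2, with the slightest 8p fall, held the largest shift of 3 genes (H6PD, RAB12 and PPP1R3F) and the smallest of 1, TIAF1. WIPF1 stood at −2.59, −1.02, −1.71 and −0.94 in miR-155OE libraries 1 to 4, a largest shift 2.76 times the smallest. Its deeper falls were in libraries 1 and 3, as were those of 8p, though the full order differed. None of the other genes had its larger shifts in libraries 1 and 3. With 4 libraries no correlation was computed.

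Taken between same-numbered libraries, the picture differed. The median 8p difference was −0.48, −0.20, −0.62 and −0.28 in pairs 1 to 4, in the same order of size, and 1 of the 9 genes, TIAF1, had that order too. Pair 3, with the largest 8p difference, then held the largest difference of 5 genes (KLHL29, H6PD, RBM4B, TIAF1 and PLD5) and the smallest of 2 (PPP1R3F and OSBPL10). The count of genes that follow the order of 8p therefore depended on whether the CTRL mean or the same-numbered CTRL library was subtracted. The paired differences were chosen after seeing the data. Pair 3 was also the least certain, since miR-155OE library 3 was more like CTRL library 4 than like CTRL library 3.

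**Figure D3:**
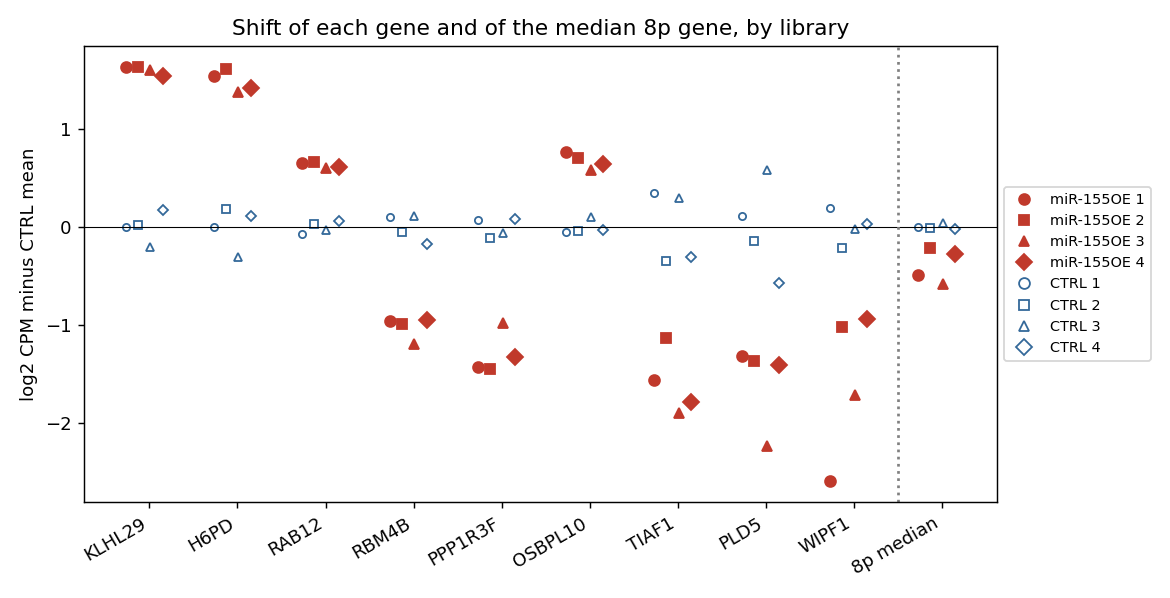
Difference of log2 CPM from the CTRL mean for each gene and for the median 8p gene, with filled red markers for miR-155OE libraries 1 to 4 and open blue markers for CTRL libraries 1 to 4. The 8p median runs from −0.58 to −0.21 in miR-155OE, and RAB12 (0.61 to 0.67) and KLHL29 (1.55 to 1.64) hold nearly the same shift in all 4.

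Genes that share positions with the 9 were examined because no source used here gives the strand setting of the counting, and without strand the reads of overlapping exons cannot be told apart. By the quasi-likelihood test of edgeR with Benjamini-Hochberg adjustment over all tested genes, 488 of the 15135 tested genes (3.22%) changed between the groups, 329 higher (2.17%) and 159 lower (1.05%). Leaving out miR-155OE replicate 1, 2, 3 or 4 gave 125, 1274, 173 or 321 such genes, and leaving out CTRL replicate 1, 2 or 3 gave 156, 203 or 129. Of 22 genes whose spans overlap a member of the 9, 4 had enough reads to be tested, and the other 18 had at most 44 reads over all 8 libraries. Together with the nearest tested gene on each side, 22 genes were tested and edgeR called 0. Of the 22, 5 had an unadjusted edgeR p under 0.05, and DESeq2 called 4. Over all 15135 tested genes, 2925 had an unadjusted edgeR p under 0.05, and DESeq2 called 1223. With the replicate number as a block, edgeR called 4 (that fit called 12.6% of all tested genes, 7.43% higher and 5.17% lower), among them MIR34AHG, GPD1L and MYO18A. On group alone, GPD1L was called once miR-155OE replicate 2 was left out (edgeR adjusted p = 0.0255).

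TIAF1 shared the most sequence with a neighbour. Of its 5337 exonic bases, 26.1% lie in exons of MYO18A on the same strand. MYO18A, at 129 ± 3.66 CPM in miR-155OE and 108 ± 7.97 CPM in CTRL (SD, n = 4 each), differed by 0.26 in log2 fold change (SE 0.07, adjusted p = 0.0636 by edgeR; 0.26 and 0.0179 when blocked by replicate), opposite in sign to TIAF1. The TIAF1 reads were therefore few beside those of the gene that contains it, and the share of them that came from MYO18A transcripts was not tested.

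RBM4B came next. Of its exonic bases, 13.6% lie in exons of RBM4 on the opposite strand. Of the stretches of 50 bases in its transcripts, 17.2% also occur, read on either strand, in transcripts of RBM4. The overlap on the opposite strand counts in both shares, so they are not separate. RBM4, the splicing regulator, stood at 5.74 ± 0.345 CPM in miR-155OE and 6.39 ± 0.320 CPM in CTRL (SD, n = 4 each), and was not called (log2 fold change −0.16, SE 0.10, edgeR adjusted p = 0.449). RBM14, the adjacent RNA-binding gene, was at 0.04 in log2 fold change (SE 0.09, adjusted p = 0.851 by edgeR). The reads that RBM4B and RBM4 could share make the levels of both uncertain.

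The remaining genes shared little. RAB12 shared 7.47% of its exonic bases with the antisense transcript AP001793.1, which had 76 reads over all 8 libraries (log2 fold change −0.08, edgeR adjusted p = 0.953). WIPF1 shared 1.69% with AC010894.4, which had 0 reads in all 8 libraries, and OSBPL10 0.259% with OSBPL10-AS1, also at 0. KLHL29, H6PD, PPP1R3F and PLD5 shared no exonic base with another gene of the deposited list. Of the transcript stretches of 50 bases, 0% of KLHL29, 0.655% of H6PD, 0.634% of PPP1R3F and 1.90% of PLD5 occurred in another gene on either strand. ZNF860, a zinc finger gene inside the span of OSBPL10, was at 0.01 in log2 fold change (SE 0.21, adjusted p = 0.982 by edgeR).

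No nearest tested gene outside the spans was called on group alone. Next to KLHL29, ATAD2B (40.1 kb away) had a log2 fold change of 0.08 (edgeR adjusted p = 0.726), and on the other side LDAH, 2562 kb away, had −0.06 (0.752). Next to H6PD, SPSB1 had 0.04 (0.896) and MIR34AHG, the host transcript of a p53-induced microRNA, had −0.62 (SE 0.18, 0.0818; −0.61 and 0.0395 with the replicate block). PTPRM and MTCL1 beside RAB12 had −0.13 (0.475) and −0.06 (0.796), and CCDC22 and USP27X-AS1 beside PPP1R3F had 0.12 (0.560) and 0.03 (0.961). Beside OSBPL10, STT3B had 0.05 (0.724) and GPD1L −0.51 (SE 0.14, 0.0810; −0.53 and 0.0118 with the block), opposite in sign to OSBPL10. PHF12 and the pseudogene TWF1P1 beside TIAF1 had −0.08 (0.789) and −0.12 (0.757), OPN3 and CEP170 beside PLD5 had 0.14 (0.367) and −0.26 (0.228), and AC010894.2 and the pseudogene H3F3AP4 beside WIPF1 had 0.13 (0.938) and 0.06 (0.785); in each case the value in parentheses is the edgeR adjusted p.

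Over a wider stretch, 206 other tested genes lay at least in part within 1 Mb of one of the 9, with a median log2 fold change of −0.01, the same as that of all tested genes. Of these, 5 (2.43%) changed, beside 3.22% of all tested genes: 2 rose and 3 fell. Within 1 Mb of PPP1R3F, PORCN, the acyltransferase that lipidates WNT proteins, fell (186 ± 40.9 CPM in miR-155OE and 337 ± 23.1 CPM in CTRL; log2 fold change −0.86, SE 0.14, edgeR adjusted p = 0.0135), as did EBP, an isomerase of cholesterol synthesis (−0.51, SE 0.12, 0.0485). PLP2, a membrane proteolipid, rose there (105 ± 8.76 CPM in miR-155OE and 75.6 ± 4.91 CPM in CTRL; 0.48, SE 0.08, edgeR adjusted p = 0.0126; SD, n = 4 each). TWSG1, a BMP-binding protein, fell near RAB12 (−0.31, SE 0.07, 0.0462), and DYNC1LI1, a dynein light intermediate chain, rose near OSBPL10 (0.39, SE 0.08, 0.0358). Near KLHL29, H6PD, RBM4B, TIAF1, PLD5 and WIPF1, with 10, 16, 69, 44, 6 and 10 tested genes, edgeR called 0. Of the genes in these windows, 22 had an unadjusted edgeR p under 0.05, beside 2925 of all 15135 tested genes. DESeq2 called 10 of them and the replicate block 17, beside 1223 and 1908 of all tested genes. In each case the share was below that of all tested genes.

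Of the 10 tested genes near KLHL29, which ran from −0.40 to 0.08 in log2 fold change, 9 were negative, and near RAB12 8 of 9 were. Of all 206 neighbours 109 were negative, beside 51.3% of all tested genes. Near WIPF1 the 10 ran from −0.31 to 0.13. With the replicate block 27 of the 206 were called (13.1%), beside 12.6% of all tested genes. The count of 5 became 1 without miR-155OE replicate 1 or CTRL replicate 3, 2 without miR-155OE replicate 3 or 4 or CTRL replicate 1 or 2, and 14 without miR-155OE replicate 2. EBP, TWSG1 and DYNC1LI1 were called without miR-155OE replicate 2 and in no other fit that left a library out (highest adjusted p = 0.132), and PORCN lost it without miR-155OE replicate 1 (0.0521) or CTRL replicate 3 (0.0506).

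**Figure D4:**
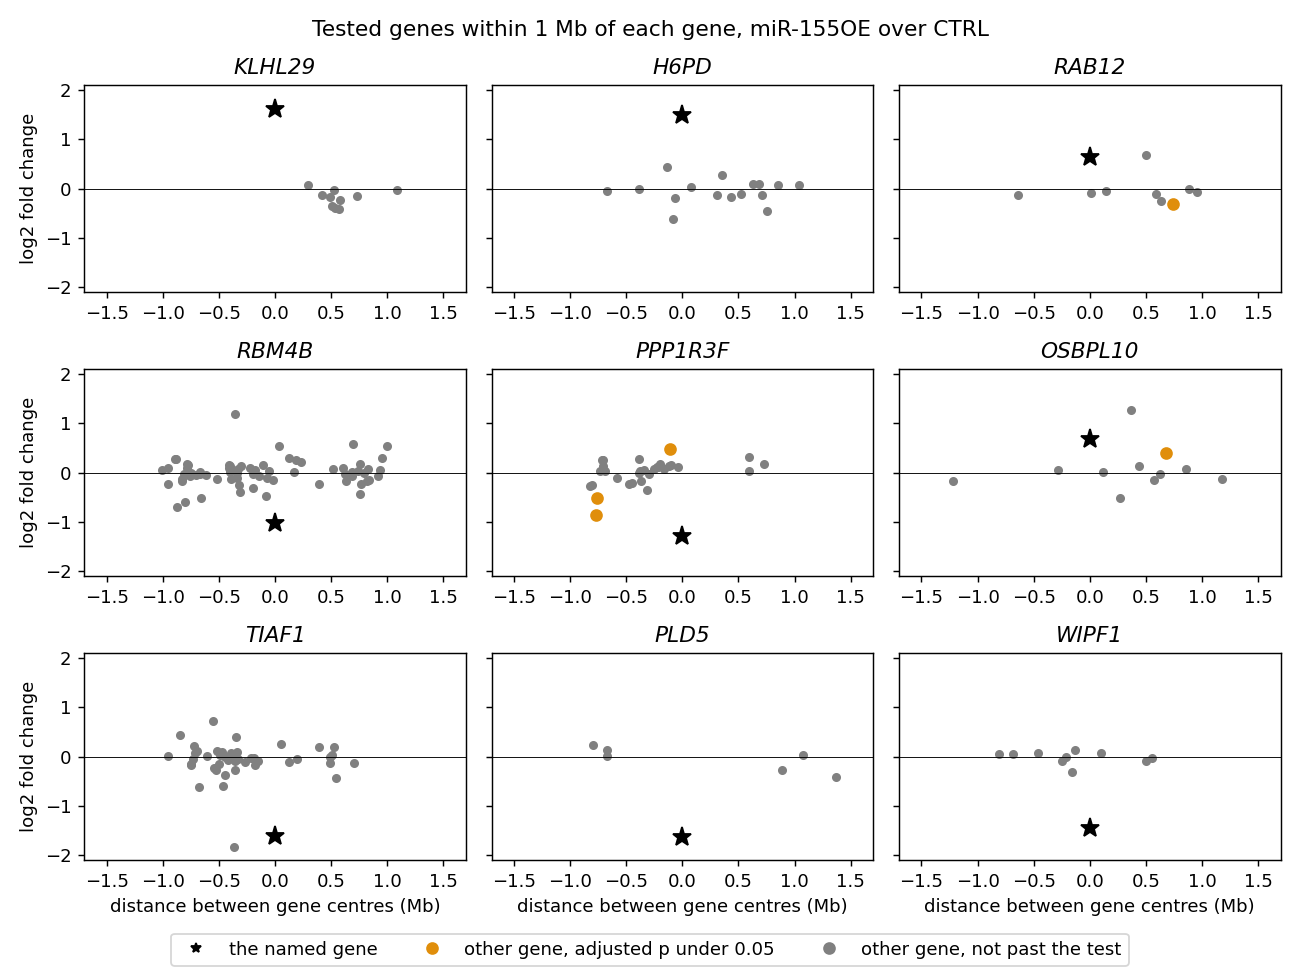
Log2 fold change (miR-155OE over CTRL) of each tested gene within 1 Mb of 1 of the 9 genes, against the distance between gene centres in Mb; the star is the named gene, orange marks other genes with an edgeR adjusted p under 0.05 and grey the rest. The neighbours scatter around 0, and the 5 called lie near RAB12, PPP1R3F and OSBPL10.

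Family and pathway partners of the 9 genes, 140 in all, gave 122 tested genes, of which 2 rose, 3 fell and 117 did not pass. That is 4.10%, beside 3.22% of all tested genes, and the median log2 fold change of the partners was −0.01, as over all genes. With the replicate block 9 rose and 10 fell (15.6%, beside 12.6%). The count of 5 became 0 without miR-155OE replicate 1 or CTRL replicate 1 or 3. It became 1 when miR-155OE replicate 3 was left out, 2 for miR-155OE replicate 4 or CTRL replicate 2 or 4, and 13 for miR-155OE replicate 2.

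Among 29 tested kelch-like genes and CUL3 partners, 3 fell (10.3%), against the direction of KLHL29, beside 1.05% of all tested genes that fell. The list as a set was not tested. KLHL4 stood at 2.09 ± 0.617 CPM in miR-155OE and 4.50 ± 0.277 CPM in CTRL (SD, n = 4 each; −1.10 as a log2 fold change, SE 0.20, adjusted p by edgeR = 0.0210). KLHL2, an adaptor for WNK kinases, stood at 35.3 ± 0.364 CPM in miR-155OE and 45.2 ± 4.44 CPM in CTRL (−0.36, SE 0.08, edgeR adjusted p = 0.0351), and KLHL22 at 11.6 ± 0.985 CPM in miR-155OE and 15.3 ± 0.605 CPM in CTRL (−0.39, SE 0.09, edgeR adjusted p = 0.0388; SD, n = 4 each). The other 26 did not pass. With the block 5 fell (17.2%, beside 5.17% of all tested genes), KLHL9 (−0.26, edgeR adjusted p = 0.0451) and KLHL17 (−0.59, 0.0468) among them. KLHL4 lost its call without miR-155OE replicate 1 or CTRL replicate 1 or 3 (highest adjusted p = 0.0737), and KLHL2 and KLHL22 kept theirs when miR-155OE replicate 2 was left out and lost it for the other 7 libraries (highest 0.114).

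Of 10 tested genes of the pentose phosphate route and of glucocorticoid conversion, HSD11B2 rose with H6PD. This enzyme inactivates cortisol, whereas H6PD supplies NADPH to the related enzyme HSD11B1, which restores it. HSD11B1 itself had too few reads to be tested. HSD11B2 stood at 7.34 ± 1.94 CPM in miR-155OE and 3.31 ± 1.08 CPM in CTRL (SD, n = 4 each; 1.16 as a log2 fold change, SE 0.26, adjusted p by edgeR = 0.0403). PGLS, the lactonase of the cytosolic route, was at 0.25 in log2 fold change (SE 0.06, adjusted p = 0.0505 by edgeR) and passed with the block (0.0167). HSD11B2 lost its call without miR-155OE replicate 1 or 3 or CTRL replicate 1, 3 or 4 (highest adjusted p = 0.112).

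Of 5 other phospholipase D genes, PLD6, the mitochondrial member, rose, opposite to PLD5: 1.44 ± 0.208 CPM in miR-155OE and 0.769 ± 0.0384 CPM in CTRL (SD, n = 4 each; 0.90 as a log2 fold change, SE 0.20, adjusted p by edgeR = 0.0426). PLD2 was at −0.16 in log2 fold change (SE 0.06, adjusted p = 0.160 by edgeR). Leaving out miR-155OE replicate 2 kept the call of PLD6, and leaving out each of the other 7 libraries ended it (highest adjusted p = 0.124).

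In the lists of RAB12, RBM4B, PPP1R3F, OSBPL10, TIAF1 and WIPF1 edgeR called 0 of 78 tested genes. Of the 78, 12 had an unadjusted edgeR p under 0.05, beside 2925 of all 15135 tested genes. DESeq2 called 5 and the replicate block 10, beside 1223 and 1908 of all tested genes. RILPL2, which binds phosphorylated RAB proteins, was at −0.56 in log2 fold change (SE 0.14, adjusted p = 0.0563 by edgeR, and 0.0362 with the block). RAB3D, a secretory RAB, was at 0.40 (SE 0.12, edgeR adjusted p = 0.104, and 0.0351 with the block). TFRC, the transferrin receptor that RAB12 routes to lysosomes, had 0.19 (SE 0.10, edgeR adjusted p = 0.346; 0.0482 with the block). Beside PPP1R3F, the glycogen-targeting subunit PPP1R3B, itself on 8p, stood at 8.42 ± 4.48 CPM in miR-155OE and 17.8 ± 3.15 CPM in CTRL (SD, n = 4 each; −1.08 in log2 fold change, SE 0.29, adjusted p = 0.0732 by edgeR; −1.18 and 0.00305 with the block). PPP1R3C, another such subunit, had −1.11 (SE 0.54, edgeR adjusted p = 0.297; −1.39 and 0.0158 with the block), and the glycogen phosphorylase PYGB 0.32 (SE 0.11, edgeR adjusted p = 0.123; 0.0248).

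Beside OSBPL10, the related lipid-binding genes OSBP2 and OSBPL5 had log2 fold changes of −0.57 (SE 0.20, edgeR adjusted p = 0.146; 0.0149 with the block) and 0.32 (SE 0.12, edgeR adjusted p = 0.172). In the TIAF1 list, TGFBR1, a TGF-beta receptor, had −0.34 (SE 0.10, edgeR adjusted p = 0.0954; 0.0345 with the block). In the RBM4B list, the splicing factor SRSF1 had 0.28 (SE 0.15, edgeR adjusted p = 0.350, and 0.0162 with the block). The SR-protein kinase SRPK2 had −0.16 (SE 0.08, edgeR adjusted p = 0.288). Of 16 tested actin nucleation partners of WIPF1, the lowest adjusted p belonged to CTTN, cortactin, at −0.13 (SE 0.07, edgeR adjusted p = 0.358), and the adaptor CRK had −0.09 (SE 0.05, 0.420); none of the 16 had an unadjusted p under 0.05, and DESeq2 and the block called 0. RAB3D was called without miR-155OE replicate 2 (edgeR adjusted p = 0.0381) or CTRL replicate 4 (0.0314), and PPP1R3B (0.00180), PPP1R3C (0.00974), OSBP2 (0.00701), TGFBR1 (0.0146), PGLS (0.0299) and KLHL17 (0.0132) without miR-155OE replicate 2.

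**Figure D5:**
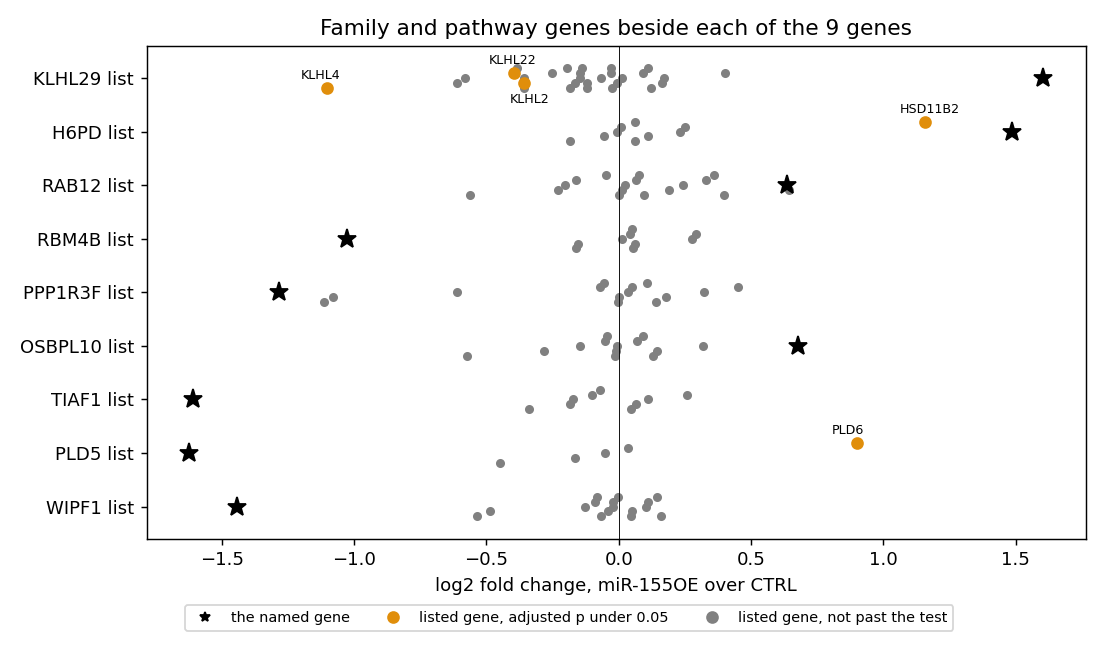
Log2 fold change (miR-155OE over CTRL) of the tested genes in the family or pathway list of each of the 9 genes; the star is the named gene, orange marks listed genes with an edgeR adjusted p under 0.05 and grey the rest. KLHL4, KLHL2 and KLHL22 lie opposite to KLHL29 and PLD6 opposite to PLD5, while HSD11B2 lies on the side of H6PD.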

How the data were processed

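RNA-seq counts of 8 libraries were used. Per the submitters' processing notes, HISAT2 2.0.5, featureCounts 1.5.0-p3 and DESeq2 were run on GRCh38; strand setting, options and annotation release are not given in the sources used here. The deposited file holds raw counts per Ensembl gene with position and length. A second deposited table, by its values, holds a normalised signal (the count divided by 1 size factor per library), the authors' log2 fold change and p-value with its adjusted form; it was not used for any value here.

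Counts were fitted in R 4.3.3 with edgeR 4.0.16 (filterByExpr, TMM, quasi-likelihood F test on group alone, Benjamini-Hochberg adjustment, threshold 0.05); library sizes were summed over the 15135 tested genes. Each SE was derived from the fold change and its F statistic. Log2 CPM used 0.5 added reads. Totals of 33443635 to 52746852 counts per library set the precision: 1 read was 0.0191 to 0.0300 CPM. Alternatives were DESeq2 1.42.0, other scalings, no low-count filter, a block by replicate number and leaving out each library. The rest used pandas 2.3.3 and numpy 2.4.6 in Python 3.11.15, with plots from matplotlib 3.10.9. The edgeR fit was tested on simulated data.

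Over 8395 genes, deviations from group means correlated at 0.620, 0.529, 0.199 and 0.621 between same-numbered miR-155OE and CTRL libraries 1 to 4 (across genes, which are not independent). Since each exceeds 0.1 the samples count as paired by number, although miR-155OE library 3 correlated best with CTRL library 4. The pairing of number 3, and with it the pair 3 differences above, is therefore uncertain. The labels do not say what the numbers share. The main fit used group alone and does not take up the pairing, so counts from the fit blocked by number are given beside it. Pairs of libraries in a group differed by 15.7 to 83.0 in chi-square per degree of freedom, so none was a repeat deposit within counting error.

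Exons, 3′ UTRs and transcripts came from GENCODE release 29 (GRCh38), whose gene spans equal the deposited ones for 58690 of 58735 genes. Seed matches were sought in the longest 3′ UTR listed per gene. The members, lists and tests were chosen with earlier results of these data known. Besides the 9 members, the rule named overlapping and adjacent genes, the list genes that passed and the lowest 2 p of each list, the 5 other genes with the highest separation, and the most similar gene to each member. List genes given for their blocked call and the called genes within 1 Mb were named after their values were seen. Results for some genes that the rule names are not reported here.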

Additional observations from a re-analysis of the deposited data

Results flagged for a closer look

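Within groups of 4, OSBPL10 in CTRL library 3 (38.0 CPM) stood far above the other CTRL libraries (34.2 to 34.8 CPM), and PLD5 in miR-155OE library 3 (0.472 CPM, from 19 reads) far below the other miR-155OE libraries (0.849 to 0.901 CPM). In such a check of groups, chance marks about 1 in 20.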

How the results depend on the processing

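All 117 alternative values for the log2 fold changes of the 9 genes kept their direction and moved by less than the spread between replicates. The groups of all 9 stayed apart under each scaling. They also stayed apart without each library, but removing a library can hardly make separate groups overlap, so nothing is read from that. Counts of called genes moved more. Over the genome they were 927 with no low-count filter, 1223 by DESeq2, 1908 with the replicate block and 125 to 1274 without 1 library, against 488. For family and pathway genes they were 13 by DESeq2, 19 with the replicate block and 0 to 13 without 1 library, against 5. For overlapping and adjacent genes they were 2 with no filter, 4 by DESeq2, 4 with the replicate block and 0 to 1 without 1 library, against 0. Within 1 Mb they were 11 with no filter, 3 with total counts only, 18 by DESeq2, 27 with the replicate block, 2 in a window of 500 kb and 1 to 14 without 1 library, against 5. The cause of these changes was not tested. The mean 8p difference stayed between −0.45 and −0.33 without 1 library and was −0.40 within same-numbered pairs. Of 50 named genes with a test, 9 changed sign under some alternative, with reported values within 0.13 of 0 and changed values up to 0.22 from 0 on the log2 scale, and none was called when it did. Depth limits TIAF1, PLD5 and WIPF1, at 15 to 65 reads per miR-155OE library. Intervals from counting cover counting error only.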

Other observations

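By the same separation measure, the 5 genes outside the 9 that stood highest were MYL4, C12orf75, SFT2D3, AC114341.1 and SPIDR, chosen from this contrast and given without a test. MYL4, a myosin light chain of muscle, had 2.73 to 5.26 CPM in miR-155OE and 0 reads in CTRL, so its separation depends on the 0.5 reads added. C12orf75 differed by little but very evenly, at 29.9 to 30.8 CPM in miR-155OE and 38.5 to 39.9 CPM in CTRL, with a log2 fold change of −0.36 and a separation of 6.09, the second highest. SFT2D3, a gene of vesicle traffic, had 10.2 to 11.1 CPM in miR-155OE and 6.66 to 7.10 CPM in CTRL (separation 4.39). The lincRNA AC114341.1 had 0.575 to 0.924 CPM in miR-155OE and 5.03 to 7.22 CPM in CTRL (3.61). SPIDR, a DNA repair scaffold on the long arm of chromosome 8, had 21.3 to 21.7 CPM in miR-155OE and 18.6 to 19.2 CPM in CTRL, a log2 fold change of only 0.18 with a separation of 3.36.

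Across the 8 libraries, the gene most like each of the 9 by Pearson correlation of log2 CPM, among 12554 others, was MYL4 for KLHL29 (0.994), RAB12 (0.993) and OSBPL10 (0.982), MAP2K2 for H6PD (0.995), AC037459.3 for RBM4B (0.988), AC131212.3 for PPP1R3F (0.974), UBR2 for TIAF1 (0.987), WDR44 for PLD5 (0.979) and TM2D2 for WIPF1 (0.976). They describe the same 8 libraries, in which the 9 genes were picked for differing between the groups, and carry no p. AC037459.3 and TM2D2, the genes most like RBM4B and WIPF1, lie on 8p (22613908 to 22616657 and 38988808 to 38996824 on chromosome 8 of GRCh38). MYL4, at 0 reads in every CTRL library, is close to a label of the group on this scale, set by the 0.5 reads added, so its correlation with genes picked for even separation was fixed by that choice. MAP2K2, a MAP kinase kinase, averaged 145 CPM in miR-155OE and 105 CPM in CTRL, and UBR2, a ubiquitin ligase, 29.7 CPM in miR-155OE and 34.2 CPM in CTRL.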
